A study of Fragaria vesca with 12 samples.

Results

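The regions described are the m6A peaks that lay in coding exons of wild-type (WT) strawberry fruit mRNA and were also found in fruit of the Fvalkbh10b mutant. A peak is a stretch of mRNA enriched by an antibody against N6-methyladenosine (m6A) over the RNA from which it was precipitated. Members were the WT peaks that the authors annotated as exonic and that overlapped any mutant peak by 1 bp or more, on one chromosome and strand. There were 4946 such peaks among 7167 WT coding exon peaks (69%) and 23966 WT peaks in all, and they fell in 4125 genes. The plants were diploid strawberry, Fragaria vesca, sampled as whole fruit at 27 days post anthesis (DPA), either wild type or carrying the Fvalkbh10b mutation. Each genotype gave 3 biological replicates of input mRNA and 3 of anti-m6A immunoprecipitated (IP) mRNA, which makes 12 libraries. No source used here gives the strawberry variety, the lesion in the mutant or the number of independent mutant lines.

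In plant mRNA, m6A is written by a nuclear methyltransferase complex built around MT-A70 family proteins, read by YTH domain proteins, and removed by dioxygenases of the AlkB family. ALKBH10B is the member of that family known in Arabidopsis as an m6A demethylase. The mark is known to be densest near the stop codon and in the 3' UTR, and coding exons carry a smaller part of it. In fruit, m6A has been tied to the stability and translation of ripening mRNAs.

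The authors deposited 1 peak list per genotype, made from the replicate experiments together, so an enrichment has no value per library and no replicate error. Expression was deposited as FPKM (fragments scaled to transcript length and library size) for each of the 6 input libraries. FPKM summed to 467174 to 469664 in WT libraries and to 500726 to 522590 in mutant libraries, and the read depth is unknown. Across member genes, log2(FPKM + 1) correlated at 0.986 to 0.989 between replicates and at 0.841 to 0.847 between genotypes (Pearson r across genes, which are not independent replicates). FvH4_2g24110, the only gene whose description names m6A dioxygenase activity, had 30.27, 28.53 and 31.03 FPKM in WT and 3.75, 3.84 and 5.34 FPKM in the mutant. The libraries of that gene did not overlap, and its RNA was lower in the mutant (log2 change −2.55 ± 0.11 SE, limma adjusted p = 3.01e-08). Whether it is the mutated gene is not stated in the labels, and its 1 WT peak was not a member. Because whole fruit was used, fewer cells of a type and less RNA per cell cannot be told apart. The summed FPKM of 35 achene and seed genes ranged over 707 to 722 in WT libraries and 470 to 503 in mutant libraries. That of 39 lignified vascular genes ranged over 64.4 to 70.3 and 102 to 105. None of these marker genes was at 0 in all libraries, and their part in the results was not tested. Positions below are 1-based, on the FvH4 gene models, and no source used here names the genome build.

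Most shared coding exon peaks were short and weakly to moderately enriched. Their median width was 472 bp (quartiles 250 and 875 bp, range 100 to 10898 bp), and 79 were wider than 3000 bp. These are genomic spans that may include introns. The median log2 enrichment of IP over input in WT was 1.5 (quartiles 1.12 and 2.10, range 0.50 to 8.15). Of the members, 4150 (83.9%) reached 1, 1425 (28.8%) reached 2, 352 (7.12%) reached 3 and 103 (2.08%) reached 4. Wider peaks were the more enriched, with medians of 1.25, 1.42, 1.59 and 1.77 from the narrowest to the widest quartile of members. For comparison, the 2221 WT coding exon peaks with no mutant partner had a median of 1.06 (quartiles 0.86 and 1.38). Peaks of the 3' UTR shared by the same overlap had a median of 3.08 and those of the 5' UTR had 1.38. Sharing was also more frequent in the 3' UTR, where 11923 WT peaks (91.3%) had a mutant partner, than in the 5' UTR, where 2854 (76.2%) did. The enrichment decided which peaks were called, so these differences are descriptions.

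**Figure D1:**
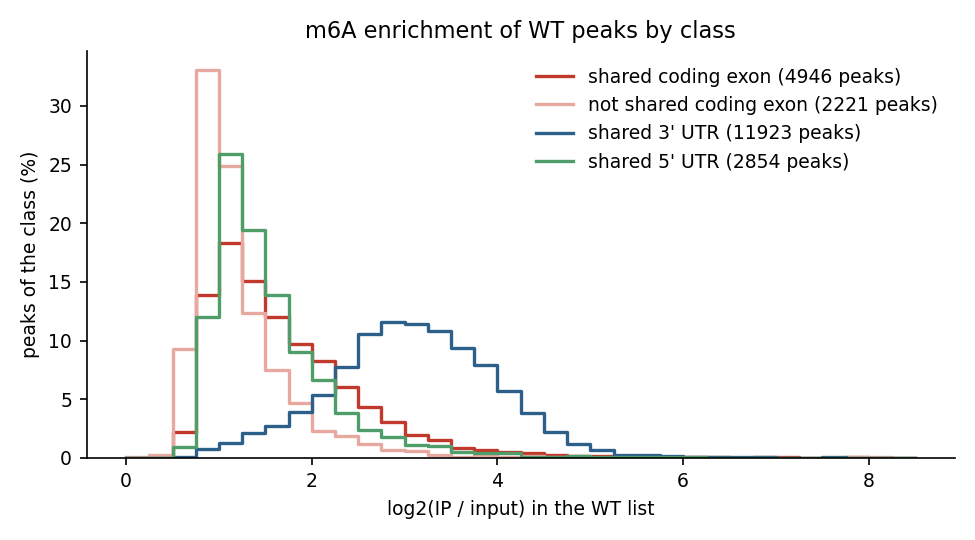
Distribution of the authors' log2 enrichment of IP over input in WT for coding exon peaks shared with the mutant, coding exon peaks found in WT alone, and shared 3' UTR and 5' UTR peaks, with the value on the x axis and the percent of each class on the y axis. Shared coding exon peaks centre on 1.5, between the 1.06 of the unshared coding exon peaks and the 3.08 of the shared 3' UTR peaks.

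The same stretch of mRNA was usually recovered in the mutant. A single mutant peak was touched by 4793 members, while 147 touched 2 and 6 touched 3. The median overlap was 375 bp. The bounds were identical in both genotypes for 832 members (16.8%), and 3772 (76.3%) overlapped their partner by at least 50% of each interval. Of the 4898 mutant peaks touched, 4392 (89.7%) were also annotated as coding exon, 278 (5.68%) as 3' UTR and 228 (4.65%) as 5' UTR. Just inside the overlap rule were 25 members that shared under 50 bp with their partner, with a median WT log2 enrichment of 0.86. Just outside it were 113 unshared coding exon peaks whose gap to the nearest mutant peak was under 50 bp, with a median of 1.11.

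Within genes, centres of members were fewest at both ends, and enrichment of members was higher toward the 3' end. Peaks labelled UTR were left out by the rule, and a peak inside its gene cannot be centred on the gene's end. The low counts at both ends therefore say nothing of where m6A lies. Gene bounds were found for 4823 members, of which 4806 lay inside their gene. Their centres had a median position of 51.7% of the gene's length, counted from the 5' end. With each gene's length divided into 10 equal bins, the bin at the 5' end held 195 centres, the bin at the 3' end held 337, and those between held 471 to 588 each. Median log2 enrichment was 1.28 in the bin at the 5' end, 1.73 in the last but one and 1.89 in the bin at the 3' end. Most members, 3879 (80.7%), reached neither end of the gene, and their median log2 enrichment was 1.40. The 594 members (12.4%) that ran up to the 3' end alone had a median of 1.855, the 236 (4.91%) that ran up to the 5' end alone had 1.655, and the 97 (2.02%) that spanned the whole gene had 2.47. The members that reached the 3' end alone lay in 594 genes, of which 1 (0.168%) had a WT 3' UTR peak, and those that reached neither end lay in 3230 genes, of which 1942 (60.1%) had one. The files give no UTR bounds, so the label of coding exon for peaks at a gene end rests on the authors' gene models. In the bin at the 3' end, members that did not reach the gene end had a median of 2.005.

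**Figure D2:**
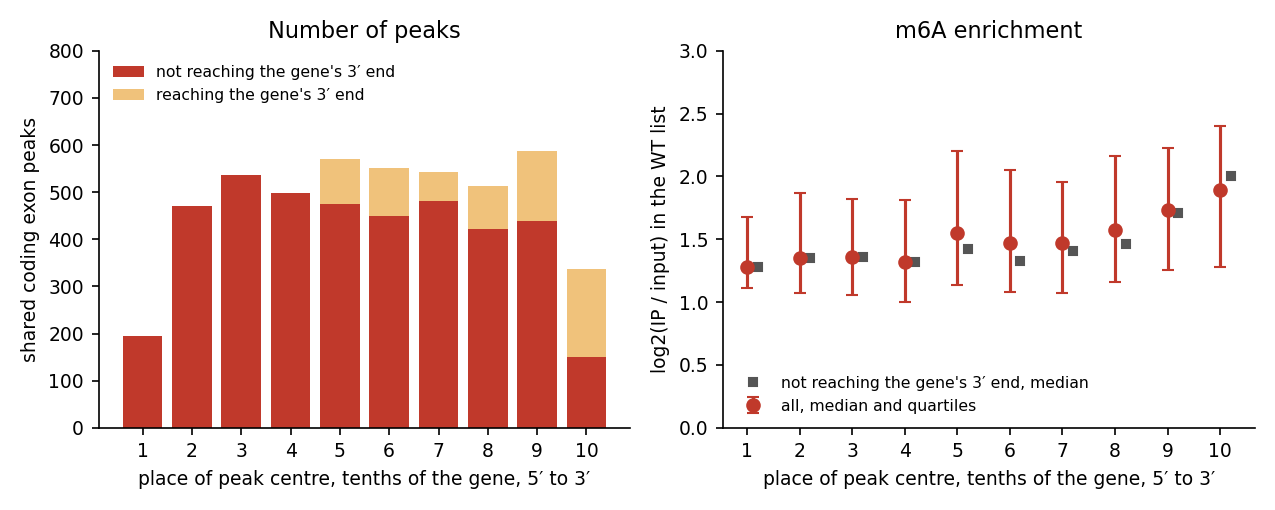
Place of shared coding exon peaks within their genes, from the 5' end to the 3' end, with the number of members and the median WT log2 enrichment in each of 10 equal bins of the gene's length. Yellow bars are peaks that reach the gene's 3' end, error bars are quartiles, and squares are medians without the peaks that reach that end. The bin at the 3' end holds 337 peaks with a median log2 enrichment of 1.89, and the bin at the 5' end holds 195 with 1.28.

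The genes carrying these peaks divided nearly evenly by whether they also had a peak labelled 3' UTR. No UTR bounds were given, so a gene without that label may still be enriched in its 3' UTR. Such a peak was listed for 0.168% of genes whose members reached the 3' end alone, and for 60.1% where members reached neither end. Coding exon peaks were the only WT peaks in 1994 of the 4125 genes (48.3%), while 1948 genes (47.2%) also had a 3' UTR peak. A 5' UTR peak was present in 794 (19.2%), and 611 (14.8%) had peaks of all 3 kinds. In the 1948 genes with a 3' UTR peak, that peak was the higher one in 1824 (93.6%), with medians of 3.21 for the highest 3' UTR peak and 1.39 for the highest member. Genes with coding exon peaks alone had a higher median for their highest member, 1.87. Members overlapped a second gene in 211 cases (4.27%), 181 of them on the other strand. The labels do not say that the libraries kept strand, so reads of such gene pairs cannot be told apart.

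Enrichment depended on how abundant the transcript was. Members in genes under 1 FPKM had a median log2 enrichment of 2.45 (341 members). Those in genes absent from the expression table, whose level is not known, had 3.41 (123 members). In genes of 1 to 5, 5 to 20, 20 to 50 and over 50 FPKM the medians were 1.62, 1.36, 1.36 and 1.305. Of the 103 members at or above 4, 33 lay in genes under 1 FPKM and 41 in genes absent from the table, and 7 lay in genes of at least 5 FPKM. The share of tested genes with a member was 24.5% at 1 to 5 FPKM and 17.5% above 50 FPKM. The depth of the input and IP libraries is unknown, and its part in this was not tested.

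Among genes with a named protein and at least 5 FPKM, the highest members included genes of the mitochondrion, of sugar metabolism and of RNA handling. The peak of FvH4_3g41910, which encodes COX15, a protein of haem A synthesis, had log2 enrichments of 4.33 in WT and 4.28 in the mutant (chromosome 3, 35081527 to 35085038, minus strand). That interval runs past the 5' bound of the gene, which is listed at 35078624 to 35082708. Most of the interval lies outside the gene, and it overlaps another gene. The mutant partner was labelled 3' UTR. FvH4_1g04120, encoding RZ1B, a glycine-rich RNA-binding protein, had 4.08 in WT and 4.59 in the mutant, where the partner was labelled 3' UTR (chromosome 1, 2175679 to 2177513, plus strand). FvH4_6g51092, encoding subunit 5C-4 of cytochrome c oxidase in the respiratory chain, had 4.01 and 3.88. Its RNA had a WT mean of 3.90 FPKM, and it passed the 5 FPKM limit through the mutant libraries alone. FvH4_6g40140, encoding a DEAD-box RNA helicase similar to RH53, had 3.73 and 3.78. Of the 8 highest, FvH4_4g04820 dropped most between the lists, with 3.99 and 3.0. It encodes 6-phosphogluconate dehydrogenase, an enzyme of the oxidative pentose phosphate pathway (chromosome 4, 4190605 to 4192276, plus strand), and the authors' deposited table gives a log2 change of −1.51 there.

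Most genes carried a single member, and a minority carried several. A single member was found in 3455 genes (83.8%), 2 members in 551, 3 in 93, 4 in 20 and 5 in 6. Members of a gene share its transcripts and libraries and are not independent. The nuclear-pore anchor gene FvH4_3g13850, whose Arabidopsis relative sits in the nuclear basket, had members with WT log2 enrichments of 1.23, 1.48, 0.68, 2.44 and 0.80 from the 5' to the 3' end. Their mutant partners had 1.37, 1.51, 0.81, 2.68 and 1.01, so these pairs ranked alike in both genotypes along the gene's 21921 bp. The last pair shared 25 bp. The mutant list also held coding exon peaks of 1.47 and 2.08 with no WT partner. A 5' UTR peak, of 1.53, was in the WT list alone. The gene's highest 3' UTR peak had 3.81 in WT and 4.02 in the mutant. FvH4_6g39571, described as myosin-10, had 5 members and 0 UTR peaks over 7397 bp, with 1.97, 1.24, 1.59, 1.03 and 1.41 in WT and 2.27, 1.44, 1.94, 1.13 and 1.42 in the mutant. FvH4_7g08960 encodes eIF4G, the scaffold of the cap-binding complex. Its 5 members had 1.0, 0.93, 0.93, 2.19 and 2.32 in WT, and the last pair was covered by 1 mutant peak of 2.63.

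Of these 3 genes, myosin-10 changed in RNA as deposited, and the calls of the other two depended on the scaling. The nuclear-pore anchor gene FvH4_3g13850 had 24.60, 24.32 and 24.90 FPKM in WT and 24.83, 22.58 and 23.30 FPKM in the mutant, which overlapped (log2 change −0.06 ± 0.06, adjusted p = 0.384). The libraries of eIF4G (FvH4_7g08960) were 37.22, 36.20 and 36.97 FPKM in WT and 38.80, 38.90 and 37.91 FPKM in the mutant (0.06 ± 0.05, adjusted p = 0.249). With libraries rescaled to one median both passed as lower, at −0.33 (adjusted p = 0.000924) for FvH4_3g13850 and −0.21 (adjusted p = 0.005) for FvH4_7g08960. Myosin-10 (FvH4_6g39571) had 31.13, 29.65 and 33.93 FPKM in WT and 94.62, 88.27 and 86.32 FPKM in the mutant, well apart (1.48 ± 0.06, adjusted p = 1.67e-08).

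**Figure D3:**
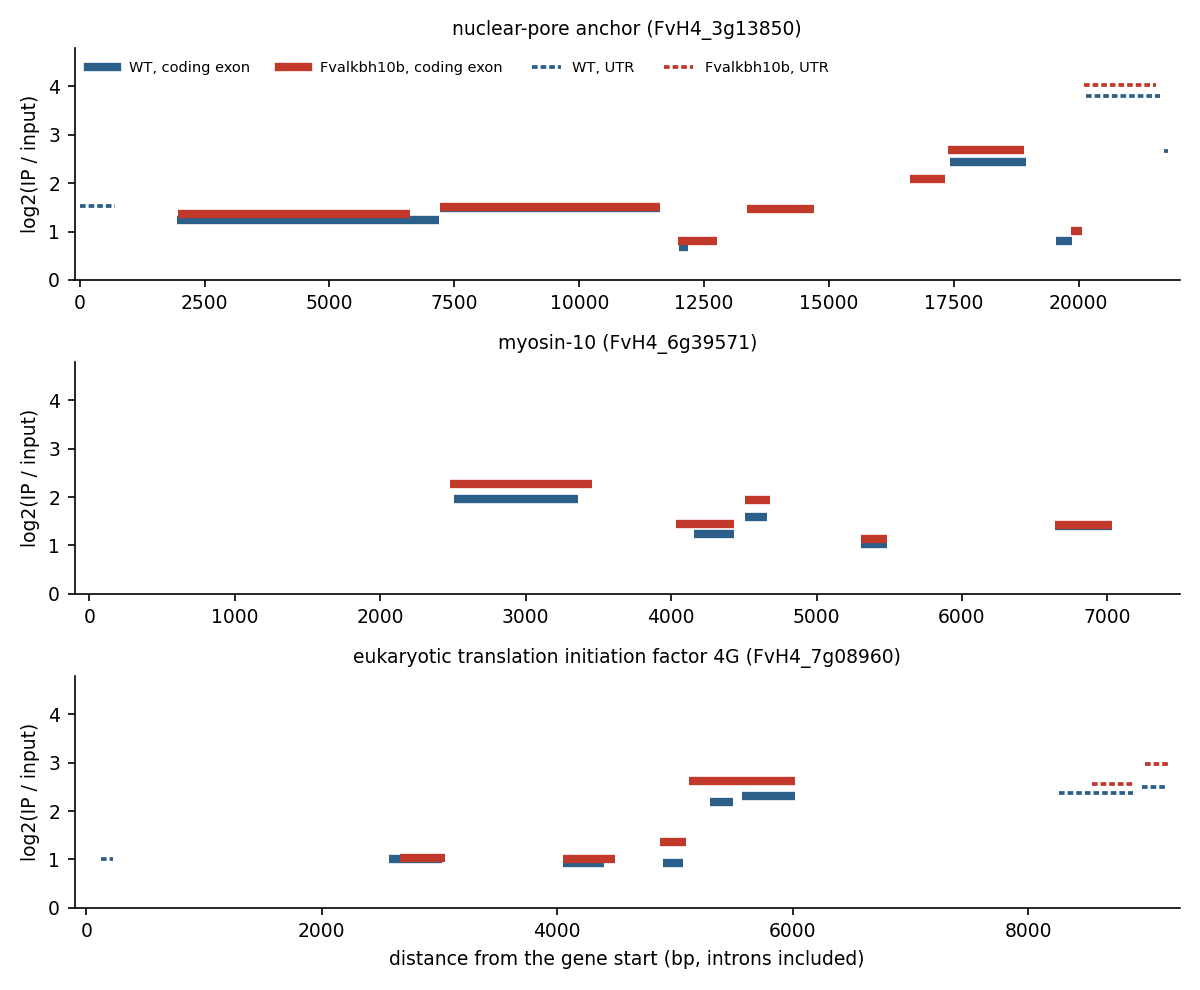
Peaks along the 3 named genes with 5 shared coding exon peaks each, drawn from the 5' end, with distance in bp on the x axis and log2 enrichment of IP over input on the y axis for WT (blue) and mutant (red) peaks. Thick bars are coding exon peaks and dashed lines UTR peaks, and a WT bar of nearly the same level is hidden behind the mutant bar. In the nuclear-pore anchor gene the 3' UTR peak, at 3.81 in WT, stands above every coding exon peak of the same list, and myosin-10 has coding exon peaks alone.

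Enrichment of the shared coding exon peaks was a little higher in the mutant. Among 4409 members paired one to one with a mutant peak, the median log2 enrichment was 1.52 in WT and 1.70 in the mutant. The median difference was 0.15 (quartiles −0.05 and 0.34), with the mutant higher in 3071 pairs (69.7%), lower in 1292 and equal in 46. In the 832 pairs with identical bounds the median difference was 0.10 and the mutant was higher in 69.6%. Shared 3' UTR peaks differed less, by a median of 0.05 with the mutant higher in 57.4% of 10573 pairs. Shared 5' UTR peaks differed by 0.14, with the mutant higher in 71.7% of 2670 pairs. Over pairs whose mean enrichment lay under 1.5, from 1.5 to 2.5 and above 2.5, coding exon pairs had median differences of 0.14, 0.17 and 0.15, and 3' UTR pairs had 0.07, 0.08 and 0.04. These values come from 2 lists made separately, their scaling is not given, and with 1 list per genotype no test was made. A pair needs a call in both lists, so WT peaks too weak to be called in the mutant are missing from it. The part of this selection in the differences, and in the contrast between classes, was not tested.

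The authors' deposited table of differential peaks, which lists 8889 peaks with a p of at most 0.05, leaned the same way. It holds 1697 peaks that overlap a member. At an adjusted p under 0.05, 1057 of these (62.3%) were higher in the mutant, where 48.7% of all listed peaks were, and 162 (9.55%) were lower, where 21.9% of all listed peaks were. The higher peaks over members had a median log2 change of 0.46, and the lower ones −0.72. Of those called, 86.7% were thus higher over shared coding exon peaks, against 61.5% over shared 3' UTR peaks (2268 higher and 1417 lower) and 85.4% over shared 5' UTR peaks (498 higher and 85 lower). Requiring a partner in the mutant removes WT peaks that were lost there. Taking the deposited table by its own annotation, without that requirement, gave 1285 higher and 341 lower coding exon peaks (79.0% higher), and 62.4% higher for the 3' UTR and 81.0% for the 5' UTR. In all, 1095 members (22.1%) in 999 genes overlapped a peak higher in the mutant, 162 (3.28%) in 160 genes overlapped a lower one, and 12 genes had both.

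**Figure D4:**
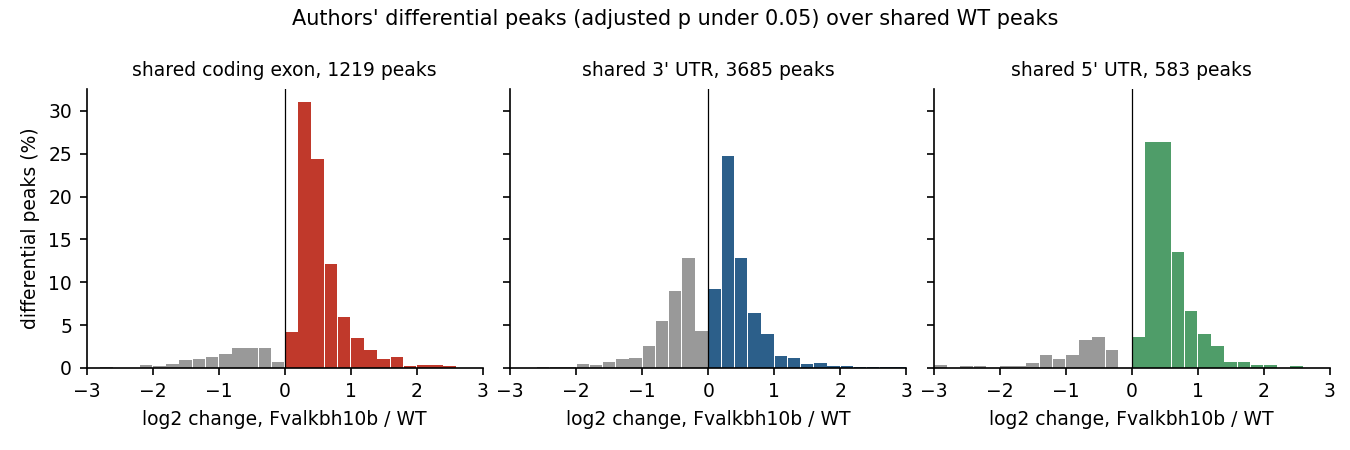
Distribution of the log2 change in enrichment (mutant over WT) in the authors' deposited table for peaks at an adjusted p under 0.05 that overlap shared coding exon, 3' UTR and 5' UTR peaks, with the change on the x axis up to 3 in either direction and the percent of each class on the y axis (grey, lower in the mutant). Peaks over shared coding exons and 5' UTRs lie mostly right of 0, and those over shared 3' UTRs are more evenly divided, with 2 coding exon and 15 3' UTR peaks outside the plotted range.

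Among named members that overlapped a differential peak by at least 50% of each interval, the largest rises in enrichment were in genes of a spindle protein, an ACT domain protein and an enzyme of cutin synthesis, among others. The change in enrichment and the change in RNA are both computed from the same input libraries, so the values are set side by side and not counted together. The largest was in FvH4_5g28561, a gene for a TPX2 protein, a family known for spindle assembly. Its peak covers the whole gene (chromosome 5, 19726804 to 19728433, minus strand) and went from 2.52 in WT to 4.53 in the mutant, a deposited log2 change of 2.02. Its RNA was 10.42, 11.07 and 7.5 FPKM in WT and 8.73, 7.22 and 11.32 FPKM in the mutant, which overlapped (adjusted p = 0.676). ACR1, FvH4_1g18070, is a protein of ACT domains, which are known to bind amino acids. Its 100 bp member had 1.36 in WT, with a deposited change of 1.77 (chromosome 1, 10501148 to 10501247, minus strand). The mutant partner, of 2.69, was wider (10500798 to 10501397) and labelled 3' UTR, so the 2 values cover unlike stretches. The gene's highest WT 3' UTR peak had 2.63. ACR1 RNA, FvH4_1g18070, was 77.17, 75.08 and 76.00 FPKM in WT and 1.74, 1.77 and 2.10 FPKM in the mutant (log2 change −4.75 ± 0.08, adjusted p = 2.11e-11). Every WT library lay far above every mutant library. LACS2, FvH4_2g07450, is an acyl-CoA synthetase known in Arabidopsis for cutin synthesis. Its 207 bp member had 1.5 in WT, with a deposited change of 1.48 (chromosome 2, 6194083 to 6194289, minus strand). The mutant partner, of 2.43, was again wider (6193868 to 6194364) and labelled 3' UTR, and the gene's highest WT 3' UTR peak had 2.85. LACS2 RNA, FvH4_2g07450, was 16.31, 18.99 and 18.19 FPKM in WT and 5.01, 4.96 and 5.66 FPKM in the mutant (−1.60 ± 0.09, adjusted p = 1.89e-07). The YLS9-like gene FvH4_6g11861 and the UPF0496 gene FvH4_2g08100 had deposited changes of 1.79 and 1.71, with mutant RNA of 0.35, 0.42 and 0.35 FPKM and of 0.91, 1.30 and 1.38 FPKM. These genes and ACR1 passed the 5 FPKM limit for naming through the WT libraries alone. Their mutant enrichments stand on very low input, so the size of these rises is uncertain.

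By the same overlap rule, the largest falls in the deposited table were in genes of strigolactone synthesis, nuclear import and auxin response, among others. CYP711A1, ARF18, SCPL50 and importin-5 passed the 5 FPKM limit for naming through the mutant libraries alone. The WT enrichments of CYP711A1, ARF18 and SCPL50 stand on input under 2 FPKM. That of importin-5 stands on 2.25 to 4.70 FPKM, so the size of all these falls is uncertain. The fall of −1.51 in FvH4_4g04820 given above did not meet the overlap rule. The peak of CYP711A1, FvH4_2g31660, went from 3.44 to 1.43, a deposited log2 change of −2.14 (chromosome 2, 24222253 to 24222552, minus strand). CYP711A1 is known in Arabidopsis as MAX1, a cytochrome P450 of strigolactone synthesis, and the interval overlaps another gene. CYP711A1 RNA, FvH4_2g31660, was 1.41, 1.76 and 1.34 FPKM in WT and 27.93, 27.51 and 28.00 FPKM in the mutant (3.53 ± 0.10, adjusted p = 7.42e-10). The peak of the auxin response factor ARF18, FvH4_7g16840, went from 1.82 to 1.08, a deposited change of −0.94 (chromosome 7, 14395953 to 14396980, plus strand). ARF18 RNA, FvH4_7g16840, was 1.76, 1.61 and 1.53 FPKM in WT and 24.96, 23.60 and 23.06 FPKM in the mutant (3.24 ± 0.09, adjusted p = 9.01e-10). The serine carboxypeptidase-like gene SCPL50, FvH4_4g32480, had a change of −1.04, with 1.65, 1.58 and 1.21 FPKM in WT and 15.50, 17.79 and 15.36 FPKM in the mutant. In importin-5, FvH4_1g21410, a nuclear import receptor, the peak went from 2.86 to 1.25, a deposited change of −1.58. Its RNA was 4.51, 4.70 and 2.25 FPKM in WT and 6.25, 9.76 and 9.11 FPKM in the mutant, a smaller rise that did not overlap (0.98 ± 0.23, adjusted p = 0.00334).

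Input RNA of the member genes changed about as often as that of all genes. Of 4125 member genes, 115 were absent from the expression table and 303 were under a mean of 1 FPKM, which left 3707 of the 15571 genes tested (23.8%). Their median level was 8.46 FPKM, against 8.92 FPKM for all genes tested. With limma at an adjusted p under 0.05, 1839 member genes (49.6%) were higher in the mutant, beside 48.3% of all genes tested, and 603 (16.3%) were lower, beside 19.1%. Past a 2-fold change the member genes numbered 453 higher (12.2%, beside 14.0% of all) and 155 lower (4.18%, beside 6.49%). These shares are near the background and say nothing particular of the members. The median log2 change was 0.25 for the member genes and 0.25 for all genes tested, and the median FPKM of member genes lay at 7.23 to 7.36 in WT libraries and at 9.03 to 9.10 in mutant libraries. When each library was rescaled to one median, 1123 member genes were higher and 1077 lower, so that 51% of the calls were higher in place of 75.3% (48.9% in place of 71.7% over all genes tested). Directions of small changes therefore rest on the scaling, and rescaled counts are given beside each group of genes below. The groups were not tested as groups, and their counts stand beside the shares of all genes tested (23.8% with a member, 48.3% higher and 19.1% lower). Of all member genes, 24.2% had a peak higher in the mutant and 3.88% a lower one.

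The largest changes of member genes were far outside that shift. BGAL16, FvH4_2g27470, a beta-galactosidase of a family that trims cell wall galactans, had 757.80, 767.71 and 750.38 FPKM in WT and 0.96, 1.10 and 1.16 FPKM in the mutant (−8.52 ± 0.05, adjusted p = 8.05e-14). Its member had log2 enrichments of 0.99 in WT and 1.47 in the mutant. The mutant partner was labelled 3' UTR and shared 50 bp of the member's 177 bp. Its value stands on input of 0.96 to 1.16 FPKM and is uncertain. The short-chain dehydrogenase SDR2a, FvH4_6g53780, had 618.14, 638.57 and 659.51 FPKM in WT and 10.68, 9.98 and 10.95 FPKM in the mutant (−5.79 ± 0.05, adjusted p = 2.84e-13). CYP86B1, FvH4_4g36980, a fatty acid hydroxylase known in Arabidopsis for suberin, had 136.84, 125.24 and 131.44 FPKM in WT and 3.28, 3.51 and 3.52 FPKM in the mutant (−4.90 ± 0.06, adjusted p = 4.41e-12). All 3 were abundant in every WT library and far lower in every mutant library. BGAL16 and CYP86B1 passed the 5 FPKM limit for naming through the WT libraries alone.

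Genes that rose included EXORDIUM-like 3, FvH4_7g27970, with 4.85, 4.30 and 3.39 FPKM in WT and 313.31, 304.32 and 307.05 FPKM in the mutant (5.91 ± 0.09, adjusted p = 1.95e-11). Its member had enrichments of 1.11 and 1.19. The IAA4-like gene FvH4_6g02870, of a family of auxin response repressors, had 2.07, 2.80 and 1.95 FPKM in WT and 106.19, 94.12 and 107.30 FPKM in the mutant (4.99 ± 0.10, adjusted p = 1.14e-10). A photosystem II gene, psbY (FvH4_4g25080), had 5.0, 2.96 and 5.08 FPKM in WT and 127.69, 127.67 and 115.21 FPKM in the mutant (4.57 ± 0.15, adjusted p = 2.51e-09). No pair of groups overlapped in these genes. Each had a WT mean under 5 FPKM and passed the limit for naming through the mutant libraries, so WT enrichments here stand on low input. A 3 against 3 exact permutation test cannot go below p = 0.1, so the adjusted p-values rest on the spread that limma shares across genes.

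**Figure D5:**
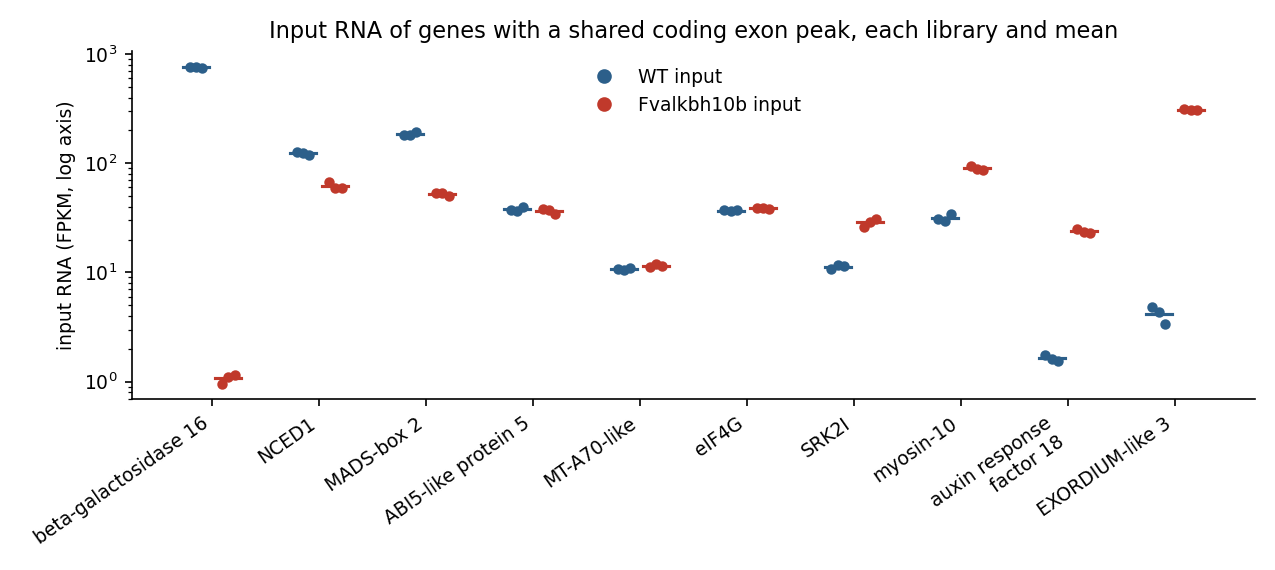
Input FPKM (log axis) of selected genes with shared coding exon peaks in the 3 WT and 3 mutant libraries, 1 point per library and a bar at each mean. BGAL16 goes from 750 to 768 FPKM in WT to about 1 FPKM in the mutant, EXORDIUM-like 3 moves the other way, and ABSCISIC ACID-INSENSITIVE 5-like protein 5 overlaps between the genotypes.

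Few genes of the m6A pathway carried a member. Of 24 tested genes whose descriptions named m6A machinery, 4 (16.7%) had a member, beside 23.8% of all genes tested. The word pattern also took in methyltransferase-like protein 13. Of the 4, 1 rose and 1 fell in RNA (0 and 1 after rescaling), and over all 24 genes 11 rose and 1 fell. The MT-A70-like gene FvH4_5g11050, of the methyltransferase family itself, had a member of 2.33 in WT and 2.72 in the mutant, a deposited change of 0.46 (chromosome 5, 6237392 to 6239243, minus strand). FvH4_5g11050 RNA was 10.86, 10.43 and 11.04 FPKM in WT and 11.12, 11.87 and 11.57 FPKM in the mutant (0.09 ± 0.07, adjusted p = 0.312). The ALKBH5 gene FvH4_1g11920, a further AlkB family member, had a member of 1.05 and 1.26 (chromosome 1, 6517755 to 6518645, minus strand). FvH4_1g11920 had 19.27, 17.18 and 19.07 FPKM in WT and 23.22, 19.16 and 23.26 FPKM in the mutant (0.23 ± 0.09, adjusted p = 0.0418). The overlap of its libraries is narrow, and after rescaling its change was −0.044 (adjusted p = 0.685). The call was also lost when any 1 WT library or mutant replicate 1 or 3 was left out (log2 changes of 0.18 to 0.26), and it held without mutant replicate 2 (0.32).

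Abscisic acid (ABA), the hormone that drives ripening of the strawberry fruit, was the ripening list with the highest share of genes carrying a member. Over all 21 ABA genes tested 10 rose and 7 fell in RNA. Of these genes, 8 (38.1%) had a member, and among the 8, 3 rose and 2 fell in RNA (2 and 3 after rescaling). A peak higher in the mutant was found in 3 of the 8 (37.5%) and a lower one in 0, beside 24.2% and 3.88% of all member genes. The list was chosen with earlier results known and its share was not tested. NCED1, FvH4_3g05440, which catalyses the first committed step of ABA synthesis, had a member of 1.77 and 1.83 (chromosome 3, 3179061 to 3179635, minus strand). NCED1 RNA, FvH4_3g05440, was 127.81, 123.62 and 119.71 FPKM in WT and 67.74, 58.76 and 59.03 FPKM in the mutant (−0.99 ± 0.06, adjusted p = 2.94e-07). SRK2I, FvH4_1g15440, a SnRK2 kinase of ABA signalling, had a member of 1.97 and 2.23 with a deposited change of 0.23. SRK2I RNA, FvH4_1g15440, was 10.72, 11.67 and 11.37 FPKM in WT and 25.94, 29.16 and 30.91 FPKM in the mutant (1.27 ± 0.08, adjusted p = 3.37e-07). ABSCISIC ACID-INSENSITIVE 5-like protein 5, FvH4_2g34330, a bZIP factor of ABA response, had the strongest member of the 3, with 2.78 and 3.23. FvH4_2g34330 RNA was 37.21, 36.33 and 40.15 FPKM in WT and 37.77, 37.19 and 34.16 FPKM in the mutant, which overlapped (−0.06 ± 0.06, adjusted p = 0.422). After rescaling it passed as lower, at −0.33 (adjusted p = 0.00132).

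Genes of other regulators also carried members. Of 34 MADS-box and NAC genes tested 8 (23.5%) had one, of 67 AP2/ERF and ethylene genes 11 (16.4%), and of 68 auxin genes 13 (19.1%). The MADS and NAC group held 4 rises and 2 falls (4 and 3 after rescaling), the AP2/ERF and ethylene group 6 and 3 (5 and 4), and the auxin group 8 and 3 (6 and 5). Over the whole lists, rises and falls numbered 12 and 13, 40 and 20, and 40 and 22. MADS-box protein 2, FvH4_4g23530, called an AGL9 homolog in the expression table and thus a relative of the SEPALLATA factors, had a member of 1.52 and 1.74 (chromosome 4, 26000576 to 26002608, plus strand). FvH4_4g23530 RNA was 180.64, 182.86 and 191.73 FPKM in WT and 53.24, 53.05 and 50.31 FPKM in the mutant (−1.81 ± 0.04, adjusted p = 3.38e-10). The ethylene response factor ERF5, FvH4_5g19800, had a member of 1.52 and 1.63, and its RNA was 33.27, 27.76 and 27.62 FPKM in WT and 5.76, 6.78 and 5.36 FPKM in the mutant (−2.13 ± 0.10, adjusted p = 5.35e-08). The NAC gene FvH4_6g33050, NAC77-like, had a stronger member, 3.26 and 3.32, and its RNA rose from 11.58, 13.06 and 11.80 FPKM to 23.40, 23.27 and 25.88 FPKM. Of 161 MYB, bHLH, WRKY, bZIP and homeobox genes, 48 (29.8%) had a member, of which 28 rose and 16 fell (24 and 17 after rescaling), and over the whole list 96 rose and 36 fell.

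Genes of fruit composition carried members in flavonoid, cell wall, sugar and photosynthesis lists. Of 47 flavonoid and anthocyanin genes tested 13 (27.7%) had a member, with 2 rises and 7 falls in RNA (2 and 8 after rescaling), and over the whole list 18 rose and 24 fell. The anthocyanidin glucosyltransferase-like gene FvH4_6g47620 had a member of 2.02 and 2.28 that overlaps another gene. FvH4_6g47620 had 10.62, 9.98 and 12.60 FPKM in WT and 0.06, 0.09 and 0.04 FPKM in the mutant (−3.50 ± 0.13, adjusted p = 6.74e-09). This gene passed the 5 FPKM limit for naming through the WT libraries alone. Its mutant enrichment of 2.28 stands on almost no input RNA and is uncertain. Of 100 cell wall genes 12 (12%) had a member, with 7 rises and 3 falls (6 and 4), while the whole list held 42 rises and 50 falls. Of 83 sugar genes 23 (27.7%) did, with 9 rises and 7 falls (6 and 8), and the whole list held 38 and 27. Of 7 photosynthesis genes with a member, of 40 tested, 6 rose and 1 fell under both scalings, with a median log2 change of 2.87. Over the whole list 39 rose and 1 fell. None of the 7 overlapped a differential peak at an adjusted p under 0.05, beside 24.2% of all member genes with a higher peak and 3.88% with a lower one. With 7 genes this count says little, and it was not tested.

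Of the 20 gene lists, coding exon peaks were found in the largest share of genes in 2 families of RNA-handling proteins, a description with no test. Of 286 pentatricopeptide repeat genes, whose products process organelle RNA, 121 (42.3%) had a member, and of 161 RNA helicase and splicing genes 68 (42.2%) did. The pentatricopeptide group had 228 members with a median log2 enrichment of 1.64, and 63 of its genes rose and 4 fell in RNA (42 and 13 after rescaling). The helicase and splicing group had 35 rises and 3 falls, but 13 and 18 after rescaling, so its direction rests on the scaling. Over the whole lists 153 rose and 10 fell, and 80 rose and 13 fell. Of the genes with a member at any level, 14.3% and 26.4% had a peak higher in the mutant and 4.76% and 2.78% a lower one, beside 24.2% and 3.88% of all member genes. Of 154 cytosolic ribosomal protein genes, 18 (11.7%) had a member, with 2 rises and 6 falls (1 and 13), while the whole list held 54 rises and 35 falls. L13a-4-like, FvH4_4g15860, a protein of the large subunit, had a member of 3.49 in WT (19781746 to 19782987). The mutant partner, of 4.16, was labelled 3' UTR and was much wider (19781721 to 19789896), so the 2 values cover unlike stretches. FvH4_4g15860 RNA was 95.37, 114.73 and 107.77 FPKM in WT and 84.96, 86.96 and 85.20 FPKM in the mutant (−0.30 ± 0.06, adjusted p = 0.00202). Of 91 translation factor genes 28 (30.8%) had a member, with 12 rises and 4 falls (8 and 11 after rescaling), and the whole list held 38 and 17. That pattern also took in the transcription elongation factor SPT5.

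Signalling, chaperone, protein turnover and chromatin genes made up the other lists. Of 262 receptor-like kinase genes, 73 (27.9%) had a member with a median log2 enrichment of 1.76, and 33 rose and 14 fell (27 and 22 after rescaling). Of 149 heat shock and chaperone genes 46 (30.9%) had a member, with 25 rises and 5 falls (13 and 14). Of 520 ubiquitin and F-box genes 104 (20%) did, with 40 and 19 (23 and 38). Of 96 chromatin genes 31 (32.3%) did, with 18 and 5 (5 and 9). For the last 3 groups the larger direction turned with the scaling. Over the whole lists, rises and falls numbered 154 and 46, 77 and 20, 233 and 78, and 50 and 14. Of their genes with a member at any level, 18.9%, 37%, 26.3% and 27.3% had a peak higher in the mutant, beside 24.2% of all member genes.

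Marker genes of achene and vascular tissue also carried members. Of 22 achene and seed genes tested 6 (27.3%) had a member, of which 1 rose and 5 fell under both scalings. Of the 6, 5 (83.3%) had a peak higher in the mutant, beside 24.2% of all member genes. Input RNA is the denominator of the enrichment, and its part in this count was not tested. Over the whole list 6 rose and 13 fell. The vicilin-like gene FvH4_4g15890, a seed storage protein, had a member of 1.54 and 1.82, a deposited change of 0.41. FvH4_4g15890 RNA was 138.68, 145.28 and 136.40 FPKM in WT and 103.21, 99.62 and 104.14 FPKM in the mutant (−0.45 ± 0.04, adjusted p = 6.7e-06). Of 13 lignified vascular genes 4 (30.8%) had a member, and all 4 rose under both scalings, with 10 rises and 2 falls over the whole list. Laccase-9, FvH4_6g39990, an oxidase of lignin formation, had a member of 2.40 and 2.45. FvH4_6g39990 RNA was 21.91, 19.95 and 21.12 FPKM in WT and 41.22, 35.30 and 36.87 FPKM in the mutant (0.82 ± 0.07, adjusted p = 4.1e-06). The part of tissue makeup in these values was not tested.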

How the data were processed

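Per the labels' protocols, mRNA of fruit was fragmented, precipitated with an anti-m6A antibody and sequenced beside input. FastQC, HISAT2 and StringTie appear, with no role, in the submitters' processing notes. No source used here gives the peak caller or genome build. The expression table holds FPKM deposited by the authors. Peak tables hold log2 enrichments, log2 changes, p-values and adjusted p-values deposited by the authors, with 1 list per genotype. The differential table lists peaks with p of at most 0.05. Starts were raised by 1. The test was limma (3.58.1, R 4.3.3) over genes averaging 1 FPKM or more in the 6 input libraries, on log2(FPKM + 1), with a term for genotype alone and a trended variance prior. P-values were adjusted by Benjamini-Hochberg over all genes tested. Fold changes on this scale understate those of low genes. The fit was tested on simulated data. Depth is unknown, so no interval for counting error is given. Named genes were the members with the largest enrichment, differential or RNA changes, those with most members, and the strongest of each list, with a named protein and at least 5 FPKM, and the text gives a selection. Lists are word patterns on descriptions. Members and lists were chosen with earlier results of these data known. Alternatives covered overlap, thresholds, pseudocount, filter, scaling and left-out libraries. Peak sequences were not analysed here.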

Additional observations from a re-analysis of the deposited data

How the results depend on the processing

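Stricter overlaps, a mutant partner in the same gene and annotation, or a log2 enrichment of at least 1 in both lists left 3772 to 4846 shared coding exon peaks. Their median enrichment was 1.40 for members reaching neither gene end, an alternative added after seeing the data. Differential peaks over members numbered 624 higher and 44 lower at an adjusted p under 0.01, and 879 higher and 100 lower over members reaching neither gene end. With libraries rescaled to one median, 1123 member genes were higher and 1077 lower, and over all genes 4800 and 5011. Leaving out 1 library gave 1687 to 1733 higher and 568 to 592 lower member genes. With a replicate block these were 1811 and 601, and 7469 and 2954 over all genes, close to the fit without it. Same-numbered libraries did not deviate together (correlations of 0.0351, −0.0313 and 0.0287 across genes), so the numbers were not taken to pair samples. Of 360 alternatives for named genes, 347 kept direction and side of the threshold and 5 turned. Rescaling turned FvH4_1g11920 to −0.044, FvH4_5g11050 to −0.17 and FvH4_7g08960 to −0.21, and FvH4_5g28561 ranged from −0.239 to 0.055 when 1 library was left out, above 0 without WT (0.014) or mutant (0.055) input replicate 2. FvH4_1g11920 lost its call in 6 others, and 3 genes became lower with a call after rescaling, FvH4_2g34330 and FvH4_3g13850, both at −0.33, and FvH4_7g08960, whose direction turned. Enrichments have no replicate error, and read depth is unknown.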
